A study of Mus musculus with 9 samples.

Results

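Cpt1a, Cpt2, Acadl and Hadha, enzymes that carry long-chain fatty acids into mitochondria and start to break them down, were followed in mouse liver RNA-seq by their gene symbols. All 4 were present among the 5608 genes listed, and all 4 were among the 4665 genes with a mean of at least 1 TPM (a transcript level corrected for transcript length and for the total of its library). The 9 liver libraries came from wild-type C57BL/6 J mice in 3 groups of 3 mice each. FED mice ate standard chow freely, IF (intermittent fasting) mice had their food removed for 24 h, 2 times in the week, and ate freely in between, and FMD mice received a calorie-restricted, fat-rich fasting-mimicking diet for 3 days. IF livers were taken right after a fast, and FMD livers at the end of the diet. Ages and sexes of these mice were not used here, and libraries carry the numbers 1, 2 and 3, or 1, 2 and 4 for FMD. Each library is from whole liver, where fewer cells of a type and less RNA per cell cannot be told apart.

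Long-chain fatty acids cross the inner mitochondrial membrane only as carnitine esters. Carnitine palmitoyltransferase 1A, encoded by Cpt1a, makes the ester on the outer membrane and is the liver's main point of control, being blocked by malonyl-CoA, an intermediate of fatty acid synthesis. Carnitine palmitoyltransferase 2 (Cpt2) turns the ester back into acyl-CoA inside. Long-chain acyl-CoA dehydrogenase (Acadl) then catalyses the opening step of a turn of beta-oxidation, and the alpha subunit of the trifunctional protein (Hadha) the hydratase and hydroxyacyl-CoA dehydrogenase steps for long chains. In fasting liver, these genes are known targets of the nuclear receptor PPAR alpha, and the acetyl-CoA made feeds ketone body synthesis.

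The stretches of 250 bases before the annotated starts of the 4 genes are shown as a description of their sequence. They are the RefSeq sequences on GRCm38.p6, the build of the sequence table used here, written 5′ to 3′ along each gene's strand, at chr19:3323051-3323300, plus strand for Cpt1a (NCBI gene 12894), chr4:107923590-107923839, minus strand for Cpt2 (NCBI gene 12896), chr1:66863310-66863559, minus strand for Acadl (NCBI gene 11363) and chr5:30154981-30155230, minus strand for Hadha (NCBI gene 97212). Capitals mark the letters of the GC box core (GGGCGG), those of the box named after its sequence (CCAAT), and those of a nuclear receptor site (AGGTCA), each read on either strand.
Cpt1a: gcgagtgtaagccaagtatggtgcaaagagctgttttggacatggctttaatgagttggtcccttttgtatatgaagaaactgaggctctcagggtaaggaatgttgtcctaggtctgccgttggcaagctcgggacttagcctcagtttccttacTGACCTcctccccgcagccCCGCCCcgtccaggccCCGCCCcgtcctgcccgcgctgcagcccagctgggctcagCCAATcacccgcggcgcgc
Cpt2: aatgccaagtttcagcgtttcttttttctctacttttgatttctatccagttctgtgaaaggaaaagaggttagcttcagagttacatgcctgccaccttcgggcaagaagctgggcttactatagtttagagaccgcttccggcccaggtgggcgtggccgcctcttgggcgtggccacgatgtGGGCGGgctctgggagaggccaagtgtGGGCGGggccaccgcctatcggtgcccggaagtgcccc
Acadl: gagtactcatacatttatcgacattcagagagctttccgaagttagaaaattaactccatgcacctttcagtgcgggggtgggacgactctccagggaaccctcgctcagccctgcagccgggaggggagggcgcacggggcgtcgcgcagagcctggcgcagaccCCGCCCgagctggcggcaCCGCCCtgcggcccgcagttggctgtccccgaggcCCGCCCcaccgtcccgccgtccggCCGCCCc
Hadha: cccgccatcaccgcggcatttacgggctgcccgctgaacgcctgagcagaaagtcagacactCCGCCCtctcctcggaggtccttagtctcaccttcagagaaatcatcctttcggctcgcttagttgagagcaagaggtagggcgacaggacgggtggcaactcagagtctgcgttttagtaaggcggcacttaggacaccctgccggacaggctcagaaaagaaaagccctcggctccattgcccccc
The letters GGGCGG occurred in all 4 stretches and in 32.7% of the 32841 stretches of the same length in the table. There were 2 matches before Cpt1a, 2 before Cpt2, 4 before Acadl and 1 before Hadha. The receptor site AGGTCA was found before Cpt1a alone of the 4 and in 14% of all stretches. Its direct repeat with 1 base between the copies, the DR1 form that PPAR alpha binds, was searched with both copies spelled AGGTCA and was in none of the 4 and in 0.0335% of all. CCAAT was before Cpt1a alone of the 4, and in 33.9% of all stretches, while the TATA box letters TATAAA (12.4% of all stretches), the core of the site read by CREB, TGACG (17.8%), and the E-box CACGTG (6.02%) were before none of them. All 4 were richer in CpG than the median stretch, with an observed to expected ratio of 0.634 for Cpt1a, 0.651 for Cpt2, 0.746 for Hadha and 0.871 for Acadl, against a median of 0.374. Such matches describe letters in these windows and say nothing of binding.

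A general upward shift of the listed genes in the diet groups has to be read beside each change. The listed values made up 26.3% to 29.3% of the TPM total in FED, 32.9% to 34.9% in IF and 34.9% to 43.0% in FMD libraries, and over all genes tested the median log2 fold change was 0.24 in IF vs FED, 0.48 in FMD vs FED and 0.24 in FMD vs IF. Results are therefore also given on scaled TPM, for which a library's values were divided by their median ratio to the average library. This factor lay between 0.815 and 0.843 in FED, 0.962 and 1.03 in IF and 1.09 and 1.43 in FMD libraries, and FMD replicate 1, at 1.43, stood apart. Of the marker genes listed for hepatocytes in general, 0 of 10 were in the table, while the periportal hepatocyte genes Cyp2f2, Gls2 and Ass1 (3 of 8 listed) summed to 3637 to 6316 TPM over all libraries. Cyp2f2 itself was lower in both diets, with log2 fold changes of -0.66 and -0.73 for IF and FMD (limma adjusted p = 0.0129 and 0.00288). The other periportal genes were not called in either diet as deposited, with 0.21 and 0.13 for Ass1 and 0.09 and -0.20 for Gls2, and on scaled TPM Gls2 was called lower in FMD, at -0.75 (adjusted p = 0.0128). The pericentral gene Glul (1 of 8) was at 474 to 578 TPM in FED, 441 to 644 in IF and 161 to 535 in FMD libraries. Of macrophage markers 1 of 8 was listed, Cd68, with 6.35 to 10.35 TPM in FED, 3.14 to 5.99 in IF and 5.75 to 64.0 in FMD libraries, the top value being that of FMD replicate 1. The stellate cell and fibroblast genes (3 of 7) summed to 66.6 to 93.8 TPM in FED, 122 to 160 in IF and 107 to 217 in FMD libraries, a sum made up almost wholly by Dcn. In limma Dcn was called higher in IF and FMD, at 0.86 and 0.90 (adjusted p = 0.0229 and 0.0074), and on scaled TPM in neither. Col1a1 (-0.13 and -0.22) and Pdgfrb (0.15 and -0.05) were not called in IF or FMD. In FED, IF and FMD libraries the adipocyte genes (2 of 6) summed to 10.1 to 14.98, 13.5 to 41.1 and 19.4 to 90.1 TPM. Of these, limma called Pparg higher in IF and FMD, at 1.10 and 0.85 (adjusted p = 0.0147 and 0.0169). Fabp4 was called higher in FMD alone, at 1.87 (adjusted p = 0.0281), and neither gene was called on scaled TPM. FMD replicate 1 also held the lowest Glul value and the highest values of Dcn (213 TPM) and Fabp4 (80.3 TPM). The cholangiocyte gene Krt19 (1 of 6) stood at 0.76 to 4.07 TPM throughout. No listed neutrophil, lymphocyte, endothelial, muscle or erythroid marker was in the table. The part of these cells in the changes below was not tested.

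Cpt1a was lowest in FED and higher in every IF and FMD library. As deposited, all IF libraries lay above all FED libraries for 53.8% of all genes, and all FMD libraries for 68%. It was at 66.2, 96.5 and 92.5 TPM in FED replicates 1, 2 and 3, at 264, 279 and 235 TPM in IF replicates 1, 2 and 3, and at 369, 487 and 258 TPM in FMD replicates 1, 2 and 4. FMD values were the most spread of the 3 groups, and the lowest FMD library lay within the IF range. The means were 85.1 ± 16.5, 260 ± 22.4 and 371 ± 115 TPM (SD, n = 3 each).

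Cpt2, the partner on the inner membrane, had the smallest log2 fold change of the 4 enzymes in each diet. FED replicates 1, 2 and 3 were at 70.3, 75.6 and 72.8 TPM, IF replicates 1, 2 and 3 at 183, 150 and 150 TPM, and FMD replicates 1, 2 and 4 at 163, 201 and 155 TPM. Both diet groups lay above FED, as for 53.8% (IF) and 68% (FMD) of all genes, and overlapped each other. The means were 72.9 ± 2.66, 161 ± 19.5 and 173 ± 24.6 TPM (SD, n = 3 each).

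Acadl was at 79.9, 92.7 and 89.0 TPM in FED replicates 1, 2 and 3, at 223, 241 and 203 TPM in IF replicates 1, 2 and 3, and at 334, 350 and 278 TPM in FMD replicates 1, 2 and 4. As deposited its 3 groups did not overlap, and FMD lay above IF and IF above FED. All FMD libraries lay above all IF libraries for 33.6% of all genes, and all IF above all FED for 53.8%. On scaled TPM the FMD and IF groups of Acadl overlapped. The means were 87.2 ± 6.58, 222 ± 18.7 and 320 ± 37.8 TPM (SD, n = 3 each).

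Hadha also formed 3 separate groups in the same order as deposited, beside the same shares of all genes, 33.6% for FMD above IF and 53.8% for IF above FED. On scaled TPM its FMD and IF groups overlapped. FED replicates 1, 2 and 3 were at 117, 141 and 134 TPM, IF replicates 1, 2 and 3 at 301, 288 and 286 TPM, and FMD replicates 1, 2 and 4 at 373, 409 and 317 TPM. The IF libraries had the smallest coefficient of variation of any group for these enzymes, 2.84%, at 291 ± 8.27 TPM, against 131 ± 12.0 in FED and 366 ± 46.1 in FMD (SD, n = 3 each).

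**Figure D1:**
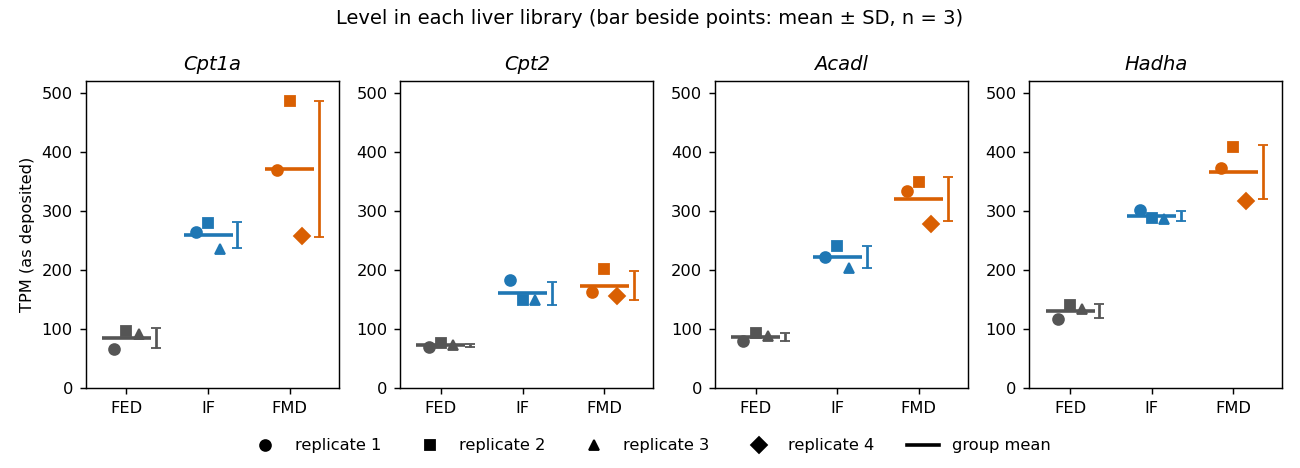
Each point is the TPM of 1 liver library (y axis, from 0) in the FED, IF or FMD group (x axis), with its replicate number given by its shape, a line at the group mean and a bar of ± 1 SD (n = 3). For each of the 4 enzymes, all IF and FMD points lie above all FED points, as for 53.8% (IF) and 68% (FMD) of all genes. FMD replicate 2 is the highest FMD point and FMD replicate 4 the lowest.

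The order of the 4 levels differed between the groups. In FED livers Hadha was highest, above the ranges of the other 3, while Acadl and Cpt1a, and Cpt1a and Cpt2, overlapped. In IF livers the order of means was Hadha, Cpt1a, Acadl and Cpt2, with only Cpt1a and Acadl overlapping. In FMD livers Cpt1a and Hadha had about the same mean, their ranges overlapped those of each other and of Acadl, and Cpt2 was below all of them. Among the 4665 genes tested, Cpt1a stood at position 615, 454 and 475 from the top by level in FED replicates 1, 2 and 3, at 252 to 274 in IF and at 162 to 263 in FMD libraries. Such a position does not depend on how a library was scaled. Cpt2 stood at 530 to 593 in FED, 341 to 390 in IF and 337 to 435 in FMD libraries. For Acadl the positions were 474 to 539, 278 to 307 and 223 to 247, and for Hadha 338 to 412, 229 to 243 and 195 to 223.

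All 4 enzymes were higher in IF than in FED livers. A gene was called where limma on log2(TPM + 1) gave a Benjamini-Hochberg adjusted p below 0.05 over the 4665 genes and a change of more than 1.5-fold, and 10.3% of these genes were called higher and 1.59% lower in IF. The 3 IF libraries lay above the 3 FED libraries for all 4 enzymes, as for 53.8% of all genes. Cpt1a changed most, at a log2 fold change of 1.61 (95% confidence interval 1.13 to 2.10, adjusted p = 0.000941), a 3.06-fold rise, which placed it 29 from the top among all genes tested. Acadl followed with 1.34 (1.06 to 1.62, adjusted p = 0.000156), then Hadha with 1.15 (0.88 to 1.43, adjusted p = 0.000323) and Cpt2 with 1.13 (0.83 to 1.42, adjusted p = 0.000426). On scaled TPM, where 3.69% of genes were called higher, 3.45% lower, and 23.2% had all IF above all FED libraries, the 4 enzymes were still called and separate. Their scaled log2 fold changes were 1.34 for Cpt1a, 1.06 for Acadl, 0.88 for Hadha and 0.85 for Cpt2, with adjusted p of 0.00433, 0.000733, 0.00219 and 0.00636.

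All 4 enzymes were also higher in FMD livers than in the same FED libraries. In this comparison 35.5% of all genes were called higher, 1.59% were called lower, and 68% had all FMD above all FED libraries, as the 4 enzymes did. The log2 fold change of Cpt1a was 2.08 (1.60 to 2.57, adjusted p = 8.96e-05), a 4.24-fold rise, and that of Acadl 1.86 (1.58 to 2.14, adjusted p = 9.58e-06), a 3.63-fold rise. Hadha rose 2.78-fold, by 1.48 on the log2 scale (1.20 to 1.75, adjusted p = 2.68e-05), and Cpt2 2.34-fold, by 1.23 (0.94 to 1.52, adjusted p = 0.000106). On scaled TPM all 4 were called and separate from FED, where 5.49% of genes were called higher, 5.64% lower, and 18.5% were separate in that direction. The scaled log2 fold changes were 1.53 for Cpt1a (adjusted p = 0.00122), 1.31 for Acadl (adjusted p = 9.78e-05), 0.92 for Hadha (adjusted p = 0.00109) and 0.68 for Cpt2 (adjusted p = 0.0108). The value for Cpt2 stood close to the limit, which is 1.5-fold, and without FMD replicate 2 it was 0.53 on scaled TPM and no longer called. Without FMD replicate 1, the library that stood apart, the scaled values were 1.63 for Cpt1a, 1.40 for Acadl, 1.03 for Hadha and 0.84 for Cpt2, and all 4 were called.

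**Figure D2:**
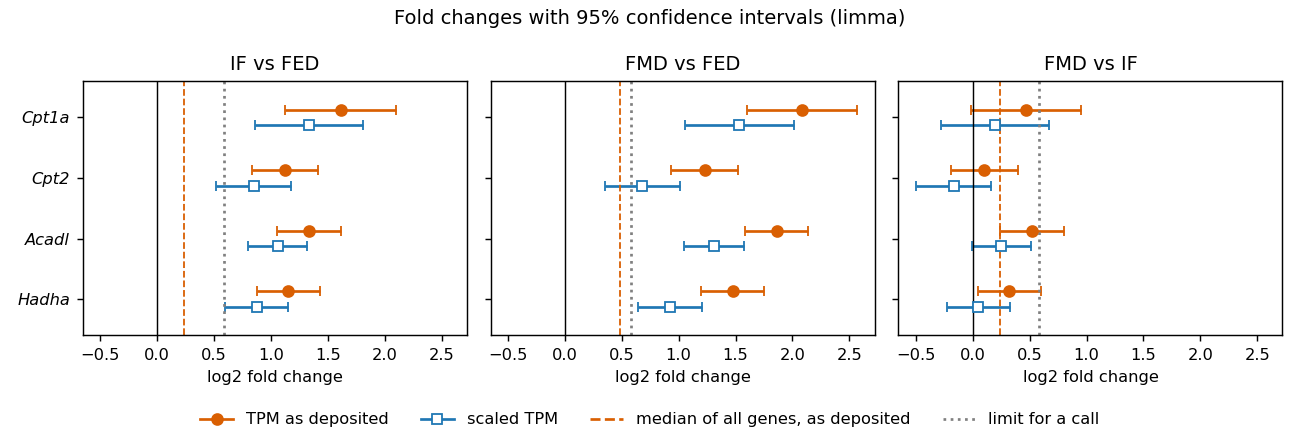
Each marker is a limma log2 fold change (x axis) with its 95% confidence interval for 1 of the 4 enzymes (y axis), from TPM as deposited (filled circles) and from scaled TPM (open squares), in each of the 3 comparisons. The dashed line is the median of all genes tested on TPM as deposited and the dotted line the 1.5-fold limit, and in FMD vs IF the scaled intervals of all 4 enzymes include 0.

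Between the diets, 0 of the 4 enzymes were called. FMD stood above IF in every library for Acadl and Hadha, as for 33.6% of all genes, and 4.67% of genes were called higher and 0.472% lower in FMD. The log2 fold change of FMD vs IF was 0.52 for Acadl (0.24 to 0.80, adjusted p = 0.0373), short of the fold limit, 0.47 for Cpt1a (-0.02 to 0.95, adjusted p = 0.152), 0.32 for Hadha (0.05 to 0.60, adjusted p = 0.104) and 0.10 for Cpt2 (-0.19 to 0.39, adjusted p = 0.569). At an unadjusted p under 0.05 limma gave 2 of the 4, Acadl and Hadha. On scaled TPM the groups overlapped for all 4 enzymes, while 12.7% of genes had all FMD above all IF libraries, and the differences were 0.25 for Acadl (-0.01 to 0.51), 0.20 for Cpt1a (-0.28 to 0.67), 0.05 for Hadha (-0.23 to 0.33) and -0.17 for Cpt2 (-0.50 to 0.16), with adjusted p of 0.231, 0.608, 0.835 and 0.522. By this scaling 1.11% of genes were called higher in FMD and 0 of the 4 enzymes had an unadjusted p under 0.05. Without FMD replicate 4, Cpt1a at 0.71 (adjusted p = 0.0205) and Acadl at 0.62 (adjusted p = 0.00818) were called on TPM as deposited, while without FMD replicate 2 the value of Cpt1a was 0.25, and on scaled TPM without it Cpt1a and Hadha were at -0.06 and -0.07, not called.

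FMD replicate 2 was highest for all 4 enzymes, before and after scaling. It was also highest for 14 of the 16 other genes tested from the lists of carnitine handling, acyl-CoA supply, beta-oxidation steps and electron transfer. These lists also hold genes that are not steps of the mitochondrial spiral, among them Acsl1, Crat, Crot, Acbd5, Slc22a5 and Ivd. Over all genes FMD replicate 2 was highest for 14.9% as deposited and 30.7% after scaling. FMD replicate 1, which was highest for 71.8% of all genes as deposited, was highest for 0 of the 4 enzymes and 1 of the 16 other genes, and after scaling it was lowest for 3 of the 4 (Cpt2, Acadl and Hadha) and 15 of the 16, against 37% of all genes. Cpt1a showed the widest range, with 487 TPM in FMD replicate 2 at 1.89 times the 258 TPM of FMD replicate 4. In FED livers, replicate 1 was lowest and replicate 2 highest for all 4 enzymes, with replicate 1 lowest for 11 of the 16 other genes and for 41.2% of all genes. Body weight and blood values of these single mice were not used here.

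Ratios between the enzymes within a library, which no scaling of that library can move, show how unequally they changed. They are a description without a test. The log2 ratio of Cpt1a to Cpt2 was -0.09, 0.35 and 0.35 in FED replicates 1, 2 and 3, 0.53, 0.90 and 0.65 in IF replicates 1, 2 and 3, and 1.18, 1.27 and 0.73 in FMD replicates 1, 2 and 4. Each diet library was above each FED library, while IF and FMD overlapped. In linear terms Cpt1a transcripts were on average 1.15 times those of Cpt2 in FED, 1.62 times in IF and 2.09 times in FMD livers.

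Cpt1a against Hadha moved alike, with mean log2 ratios of -0.64 ± 0.17 for FED, -0.17 ± 0.12 for IF and -0.02 ± 0.28 for FMD livers (SD, n = 3 each), so that both transcripts stood near the same level in FMD livers. The ratio of Acadl to Hadha, enzymes of consecutive steps, varied little within FED and FMD. It was -0.56, -0.60 and -0.59 in FED replicates 1, 2 and 3, -0.44, -0.26 and -0.49 in IF replicates 1, 2 and 3, and -0.16, -0.23 and -0.19 in FMD replicates 1, 2 and 4. The 3 groups did not overlap, with FMD highest and FED lowest. Acadl against Cpt1a overlapped between FED and FMD and between IF and FMD, whereas Cpt2 against Acadl was lower in every FMD library (log2 ratio -1.04 to -0.80) than in any IF library (-0.69 to -0.28) or FED library (-0.29 to -0.18).

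**Figure D3:**
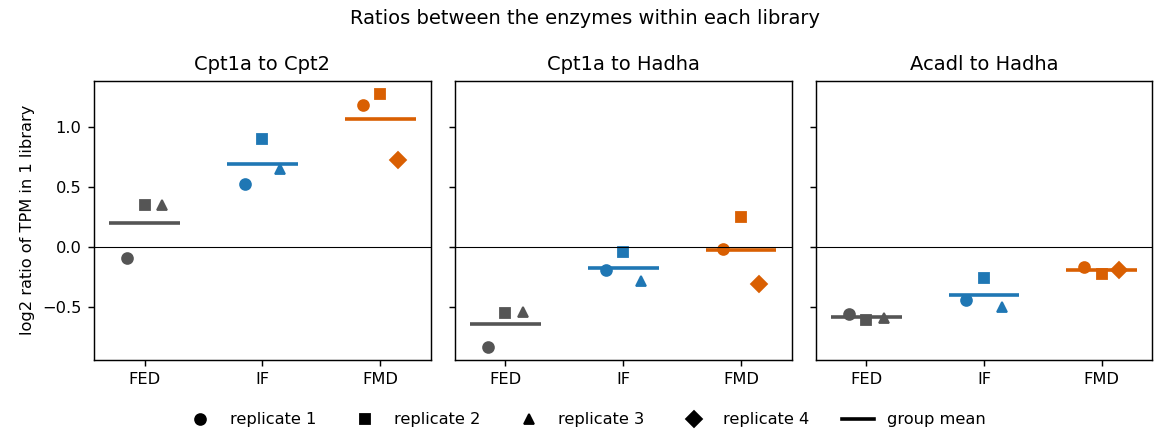
Each point is the log2 ratio of the TPM of 2 enzymes within 1 library (y axis) in the FED, IF and FMD groups (x axis), with a line at the group mean and the replicate number given by the shape. Cpt1a rises against Cpt2 and Hadha from FED to both diets, and the ratio of Acadl to Hadha separates the 3 groups, at -0.60 to -0.56, -0.49 to -0.26 and -0.23 to -0.16.

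The rest of the carnitine system was represented by 3 of its 6 other listed genes, and all 3 were called higher in both diets, 2 of them with log2 fold changes above that of Cpt1a. Of all genes tested, 10.3% were called higher in IF and 35.5% in FMD. Crat, the carnitine acetyltransferase that handles short acyl groups, was at 6.16 to 7.23 TPM in FED, 50.9 to 53.3 in IF and 50.2 to 59.2 in FMD libraries. Its log2 fold change was 2.79 for IF vs FED (adjusted p = 3.33e-07) and 2.83 for FMD vs FED (adjusted p = 2.85e-07). Slc22a5, the plasma membrane carnitine importer OCTN2, was at 5.93, 8.28 and 6.48 TPM in FED replicates 1, 2 and 3, at 26.8 to 39.1 in IF and at 53.0 to 65.7 in FMD libraries. It rose by 2.11 in IF and 2.91 in FMD, and was higher in FMD than IF by 0.80 (adjusted p = 0.0266), or by 0.53 on scaled TPM (adjusted p = 0.124). Crot, the peroxisomal carnitine octanoyltransferase, rose by 0.84 and 0.68, and on scaled TPM was at 0.56 and 0.13 and not called. The translocase Slc25a20 was not analysed here.

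Upstream of the shuttle, Acsl1, which activates long-chain fatty acids to acyl-CoA, was at 205 to 359 TPM in FED, 745 to 874 in IF and 332 to 675 in FMD libraries. It stood lower in every FMD than in every IF library, and FMD overlapped FED. It rose by 1.57 in IF vs FED (adjusted p = 0.00285) and by 0.92 in FMD vs FED (adjusted p = 0.0121), or by 1.29 (adjusted p = 0.0293) and an uncalled 0.37 (adjusted p = 0.467) on scaled TPM, and the FMD vs IF value of -0.65 was not called (adjusted p = 0.114). Acbd5, an acyl-CoA binding protein of peroxisomes, rose by 0.64 in IF and was at 0.51 in FMD, not called, and on scaled TPM it was called in neither diet, at 0.36 (adjusted p = 0.204) and -0.04 (adjusted p = 0.906).

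Of the 4 other genes of the hydratase, hydroxyacyl-CoA dehydrogenase and thiolase steps tested, 3 were called higher in each diet on TPM as deposited. The shares of all genes were 10.3% in IF and 35.5% in FMD. On scaled TPM 2 were called higher in IF and 0 in FMD, beside 3.69% and 5.49% of all genes. In FMD on scaled TPM, 2 had an unadjusted p under 0.05 in limma. Hadh, the short-chain hydroxyacyl-CoA dehydrogenase, changed by 0.94 in IF and 1.03 in FMD, and Acaa2, a mitochondrial thiolase, by 0.64 and 0.59. The short-chain hydratase Echs1 was at 0.40 and 0.31 and not called in either. Hsd17b10, a hydroxyacyl-CoA dehydrogenase with roles in isoleucine breakdown and mitochondrial tRNA processing, rose by 1.71 and 1.48, with 465, 1012 and 333 TPM in FMD replicates 1, 2 and 4. Hadhb, the thiolase subunit that pairs with Hadha, was not analysed here, nor were Acadm, Acads and Acadvl, the dehydrogenases for other chain lengths. Of the dehydrogenase list, Acad9 and Ivd were tested beside Acadl, and 0 of the 2 were called by limma in either diet, before or after scaling. On scaled TPM in FMD vs FED both were lower at an unadjusted p under 0.05, at -0.34 and -0.61. Ivd acts on leucine breakdown, and Acad9 also serves complex I assembly.

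The auxiliary enzymes that prepare unsaturated fatty acids for beta-oxidation behaved alike. All 4 were tested, and 4 of 4 were called higher in both diets before and after scaling, with scaled log2 fold changes from 0.86 to 1.15 in IF and from 0.81 to 1.20 in FMD. Among all genes, 10.3% were called higher in IF and 35.5% in FMD as deposited, and 3.69% and 5.49% on scaled TPM. Ech1, a dienoyl-CoA isomerase, averaged 253 ± 19.1, 684 ± 35.7 and 858 ± 116 TPM in FED, IF and FMD (SD, n = 3 each). Decr1, the dienoyl-CoA reductase, rose by 1.14 and 1.40, and the enoyl-CoA isomerases Eci1 by 1.18 and 1.36 and Eci2 by 1.38 and 1.56. Etfa, which takes electrons from the dehydrogenases, stood at 0.51 for IF and 0.56 for FMD, with limma adjusted p of 0.0105 and 0.00259 but below the fold limit. On scaled TPM it was at 0.24 and 0.008 (adjusted p = 0.290 and 0.974).

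Over the lists of carnitine handling, acyl-CoA supply, beta-oxidation steps and electron transfer, 16 of 49 other genes were tested, among them the peroxisomal Crot and Acbd5, the plasma membrane Slc22a5 and Ivd of leucine breakdown. In IF vs FED 12 of the 16 were called higher, beside 10.3% of all genes, and 0 lower. Their median log2 fold change was 1.04, beside 0.24 for all genes. In FMD vs FED 11 were called higher, beside 35.5% of all genes, and 0 lower, with a median of 0.97 beside 0.48. On scaled TPM 9 and 6 were called higher, beside 3.69% and 5.49% of all genes, with medians of 0.76 and 0.42. At an unadjusted p under 0.05, limma gave 0 lower in IF and 2 lower in FMD on scaled TPM. The citric acid cycle burns the acetyl-CoA that beta-oxidation makes. Of its 10 genes tested, 0 were called in IF (6 higher at an unadjusted p under 0.05) and 5 were called higher in FMD, with medians of 0.36 and 0.56. Of all genes tested, 35.5% were called higher in FMD. On scaled TPM 0 were called in either diet, where 1 was higher in IF and 2 lower in FMD at an unadjusted p under 0.05. Pdha1, Ogdh and Sdhd rose by 0.68, 0.83 and 0.60 in FMD and were at 0.14, 0.29 and 0.05 on scaled TPM.

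Neighbouring pathways held both rises and falls. In peroxisomal beta-oxidation, 3 of 5 genes tested were called higher in IF and 4 in FMD, and 2 in each on scaled TPM, Hsd17b4, the bifunctional enzyme, and Acaa1a, the thiolase, at 0.66 and 0.90 in IF and 0.61 and 0.86 in FMD. The shares of all genes called higher were 10.3% in IF and 35.5% in FMD, or 3.69% and 5.49% on scaled TPM. Pecr, a peroxisomal reductase of chain elongation rather than oxidation, was called lower in FMD than in IF, at -0.74 (adjusted p = 0.0373), and on scaled TPM was at -1.01 and not called (adjusted p = 0.0502). It was called lower in FMD than in FED on scaled TPM alone, at -1.14 (adjusted p = 0.00968). As deposited that value was -0.58 (adjusted p = 0.016), just short of the fold limit. Slc16a1, a monocarboxylate carrier that passes ketone bodies, rose by 1.01 in each diet, and on scaled TPM was called in IF at 0.74 but not in FMD at 0.48. Ehhadh was not analysed here.

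Of the enzymes that set malonyl-CoA, which blocks the Cpt1a protein, Mlycd, the decarboxylase that removes it, averaged 61.8 ± 2.33, 92.9 ± 1.75 and 104 ± 12.1 TPM in FED, IF and FMD (SD, n = 3 each). It rose by 0.73 in FMD (adjusted p = 0.000662) and was at 0.58 in IF (adjusted p = 0.00545), just short of the fold limit, or at 0.19 in FMD and 0.30 in IF on scaled TPM. Acaca, a carboxylase that makes malonyl-CoA, was at 8.94 to 13.5 TPM in FED, 7.51 to 9.22 in IF and 9.67 to 10.4 in FMD libraries. Its log2 fold changes of -0.36 for IF and -0.13 for FMD were not called (adjusted p = 0.0904 and 0.446), and on scaled TPM it was called lower in both, at -0.62 (adjusted p = 0.0246) and -0.63 (adjusted p = 0.0173). Prkaa2, a catalytic subunit of the kinase AMPK, was at 0.14 and 0.42 and not called. Acacb was not analysed here.

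Of the other targets of PPAR alpha listed, 5 of 23 were tested, and 5 of 5 were called higher in both diets before and after scaling. Among all genes the shares called higher were 10.3% in IF and 35.5% in FMD, or 3.69% and 5.49% on scaled TPM. Acot2, a mitochondrial acyl-CoA thioesterase, changed most, and was at 0.53 to 1.56 TPM in FED and 10.98 to 15.5 TPM in IF libraries, and at 88.4, 45.3 and 29.4 TPM in FMD replicates 1, 2 and 4. Plin2 and Plin4, coats of lipid droplets, rose by 0.85 and 2.50 in IF and 1.63 and 2.08 in FMD on scaled TPM. Angptl4, a secreted inhibitor of lipoprotein lipase, rose by 1.11 and 1.87 as deposited, and by 0.84 and 1.32 on scaled TPM. For the fatty aldehyde dehydrogenase Aldh3a2 the values were 1.88 and 2.04 as deposited, and 1.61 and 1.49 on scaled TPM. Between the diets Acot2 (1.81, adjusted p = 0.0196) and Angptl4 (0.76, adjusted p = 0.0304) were called higher in FMD, and on scaled TPM Acot2 at 1.54 (adjusted p = 0.0257) but not Angptl4 at 0.48 (adjusted p = 0.166).

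**Figure D4:**
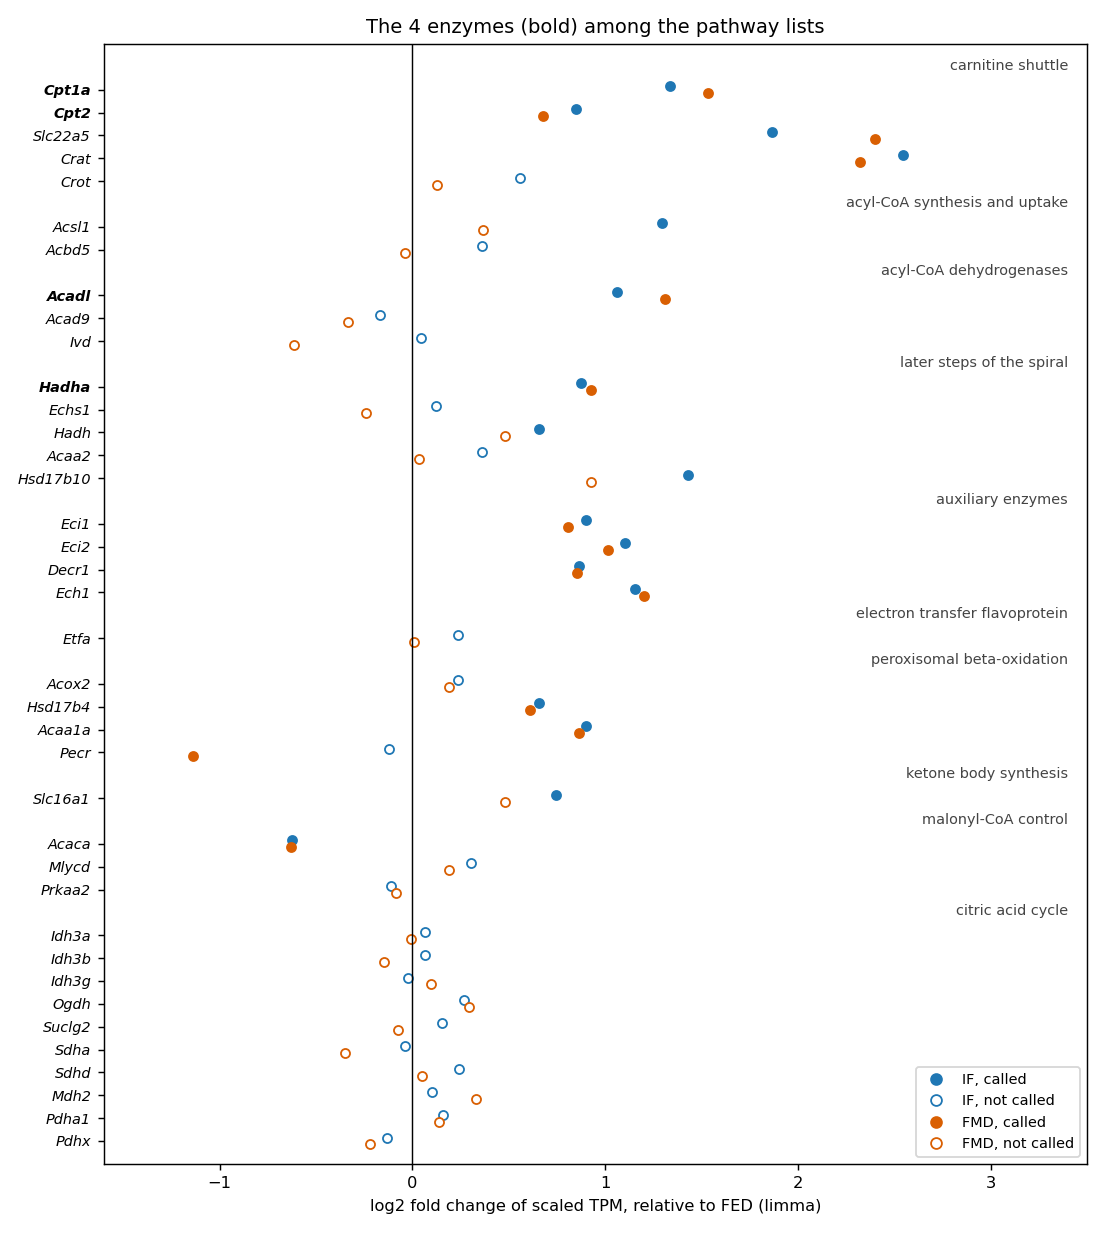
Each row is 1 tested gene, grouped by the list named at the right, without the other PPAR alpha targets and a few genes not reported here, with the 4 enzymes in bold and the scaled log2 fold change on the x axis for IF vs FED (blue) and FMD vs FED (orange). Filled points passed both limits of the call. The 4 enzymes and the auxiliary enzymes are filled in both diets, while all 10 citric acid cycle genes are open and lie between -0.35 and 0.33.

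The genes whose levels were most like those of the 4 enzymes over the 9 libraries were found by Pearson's r of log2(TPM + 1). This is a description, as the 9 libraries share 3 group levels and the shift of all genes. Cpt1a was most like Mlycd, Optn and Decr1 (r = 0.993, 0.992 and 0.992), and on scaled TPM most like Mylip, Zbed5 and Hadha, where its r with Mlycd was 0.746. Among the nearest to Cpt2 were Hsd17b4 and Acot8, a peroxisomal thioesterase, both with r = 0.989, and on scaled TPM with r = 0.982 and 0.978. Acadl was nearest to Hadha, Por and Rad54l2 and, on scaled TPM, to Gpc1, Por and Ech1. Hadha was nearest to Ech1, at r = 0.997 as deposited and 0.996 on scaled TPM, followed by Gk, the glycerol kinase gene, and Ubr4. On scaled TPM Ech1 was followed by Slc52a2 and Gk, and the r of Hadha with Ubr4 was 0.822, beside 0.994 as deposited. Among the 4 enzymes themselves, r on scaled TPM was 0.977 to 0.981 between Cpt1a, Acadl and Hadha, and 0.890 to 0.950 between Cpt2 and these 3.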

How the data were processed

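Livers of 9 mice were used, 3 per group, grouped by their labels. The libraries were strand-specific, from RNA enriched with oligo-dT, and were read by DNBSEQ. The authors deposited TPM values in 1 table, with a column for each library, and their processing notes name the build mm39. The aligner and annotation are not given in the sources used here. The table lists 5608 genes, a part of each library, so depth is unknown and counting error could not be estimated.

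The log2(TPM + 1) values of 4665 genes, those averaging 1 TPM or more, were fitted in limma 3.58.1 (R 4.3.3) with 3 group means over 9 libraries and a trended prior. Calls needed a Benjamini-Hochberg adjusted p below 0.05 and more than a 1.5-fold change, the thresholds of the study's methods. The added 1 TPM shrinks changes of low genes. Tables and figures were made with pandas 2.3.3, numpy 2.4.6 and matplotlib 3.10.9 in python 3.11.15. On simulated data (FMD vs FED, 4665 genes, 10 draws) 96.7% of 200 genes changed by 1.5 on the log2 scale were recovered. Of the calls, 3.035% were false. Whether these shares hold under a general upward shift of the listed genes was not tested. The p-values weigh each group difference against the spread between mice, moderated across genes, and both diets share the FED libraries.

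The 4 enzymes and the gene lists were chosen with earlier results of these data known. Named genes were the 4 enzymes, up to 3 genes per list with the smallest adjusted p in each diet, enzymes picked by role, list genes called lower, the 3 most similar genes per enzyme, and markers. A few genes that this rule selects are not reported here, though the counts over lists include them. Sequences came from RefSeq (4 of 4 enzymes matched). Alternatives covered the pseudocount, filter, scaling, quantile normalization, fits per pair, trend, robust fit, replicate block, thresholds and each library left out. Scaling combined with a left-out library or a block was added after seeing the data.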

Additional observations from a re-analysis of the deposited data

How the results depend on the processing

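With 3 mice per group and unknown depth, precision rests on the spread between mice, and an exact two-sided permutation test of a single gene cannot go below 0.1. In IF vs FED all 4 enzymes were called under each of 31 alternatives, and in FMD vs FED all but Cpt2, which lost its call on scaled TPM with a replicate block (0.66, adjusted p = 0.0506) and on scaled TPM without FMD replicate 2 (0.53, under the fold limit). In FMD vs IF, Cpt1a gained a call with a replicate block (0.71), and Acadl with a replicate block (0.60) or no fold limit (0.52). Number 4 occurs in FMD alone, so the block takes FMD replicate 4 out of the FMD comparisons. For these comparisons it is therefore not separate from leaving that library out, where Cpt1a was also at 0.71. It says nothing on whether pairing the mice changes the difference between the diets. On scaled TPM without FMD replicate 2, Cpt1a and Hadha turned to -0.06 and -0.07, not called. Leaving out 1 library as deposited gave 0.25 to 0.71 for Cpt1a and 0.46 to 0.62 for Acadl, both called without FMD replicate 4. Whether replicate numbers pair the mice cannot be told from these values. Same-numbered libraries deviated together with correlations of 0.003484 to 0.1768. Differently numbered ones ranged from -0.2022 (IF replicate 3 with FMD replicate 2) to 0.211 (IF replicate 3 with FMD replicate 4). FED replicate 2 correlated best with FMD replicate 4, and FED replicate 1 with IF replicate 1. The block changed no other call of the 4 enzymes.

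Of the 41 other pathway genes tested, 28 were called higher in FMD vs FED, beside 35.5% of all genes. This count was 14 on scaled TPM (5.49% of all genes), 15 with quantile normalization and 13 scaled with a replicate block, and on scaled TPM with 1 library left out it was 12, 13 and 11 without FED replicates 1, 2 and 3, 14 without any 1 IF library, and 19, 10 and 15 without FMD replicates 1, 2 and 4. In IF vs FED 22 were called higher, beside 10.3% of all genes. This count was 18 on scaled TPM (3.69% of all genes), with quantile normalization or on scaled TPM without any 1 FMD library. On scaled TPM it was 10, 13 and 10 without FED replicates 1, 2 and 3, and 12, 10 and 12 without IF replicates 1, 2 and 3. In FMD vs IF 3 were called higher, beside 4.67% of all genes. That count was 0 at an adjusted p below 0.01 or with 1 fit per pair, and 1 on scaled TPM (1.11% of all genes) or with quantile normalization. It was 5 with a replicate block, 0 without any 1 IF library, 1 without FED replicate 3 and 5 without FMD replicate 4. Over all left-out libraries it was 0 to 5, and 0 to 2 with 1 left out on scaled TPM. The cause of these differences was not tested. The differences in the 3 ratios recomputed (Cpt1a to Cpt2, Cpt1a to Hadha and Acadl to Hadha) kept their sign under each alternative, the smallest being 0.01 for Cpt1a to Hadha in FMD vs IF without FMD replicate 2.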
